A study of Mus musculus with 14 samples.

Results

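The genes described here are 10 chemokines of the mouse kidney: Ccl2, Ccl5, Ccl7, Ccl12, Cxcl1, Cxcl9, Cxcl10, Cxcl11, Cxcl16 and Cx3cl1. They were taken by symbol from a table of read counts for 24421 genes, and all 10 were found. All 10 passed the filter on low counts, which left 14854 genes to test. Messenger RNA was sequenced from whole kidneys of male C57BL/6J mice. Treated animals were given Dps or MnDps intravenously, each at 18 mg/kg, 4 h or 24 h before the kidney was taken. Control animals had received vehicle, and their labels carry no time point. The series title describes protein nanocages that are meant to reach the proximal tubule after passing the glomerular filter. The labels give no age, do not spell out Dps or MnDps, and do not say how their preparations differ. The 14 libraries are 3 controls, 3 of Dps at 4 h, 3 of MnDps at 4 h, 3 of Dps at 24 h and 2 of MnDps at 24 h. Whether each library came from its own animal is not stated, so a p-value reflects the scatter among libraries, part of which may be technical.

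Chemokines are small secreted or membrane-anchored proteins that guide leukocytes through receptors coupled to G proteins. Cxcl9, Cxcl10 and Cxcl11 are the ligands of Cxcr3, a receptor of activated T cells and NK cells, and are classic targets of interferon. Ccl2, Ccl7 and Ccl12 bind Ccr2 and draw inflammatory monocytes out of the blood. Ccl5 attracts T cells and myeloid cells and binds Ccr1 among its receptors, and Cxcl1 binds Cxcr2 on neutrophils. Cxcl16 and Cx3cl1 are made as membrane proteins with a chemokine head on a mucin stalk. They bind Cxcr6 and Cx3cr1, and the proteases Adam10 and Adam17 can cut them loose. In kidney, tubule epithelium, endothelium and resident macrophages are all known sources of chemokines.

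The genes lie in a few clusters. Coordinates are those of GRCm38 (mm10, the build of the deposited counts) in GENCODE M21, and each covers the whole gene with its exons and introns. Cxcl9 (chr5:92321347-92328079), Cxcl10 (chr5:92346638-92348889) and Cxcl11 (chr5:92359544-92365485) lie together on the minus strand within 44.1 kb. Cxcl10 lies inside the span of Art3, an ADP-ribosyltransferase gene on the opposite strand, and Cxcl11 overlaps it. GENCODE lists Cxcl11 as a polymorphic pseudogene, since the C57BL/6 allele is known to carry a frameshift, so its values describe a transcript and not a working protein. Ccl2 (chr11:82035571-82037453), Ccl7 (chr11:82045712-82047525) and Ccl12 (chr11:82101845-82103400) share the plus strand of a 67.8 kb stretch, with Ccl11 between them. Ccl5 (chr11:83525778-83530518, minus) is on the same chromosome. Cxcl16 (chr11:70453983-70459984, minus) overlaps Zmynd15 on the other strand. Cxcl1 (chr5:90891241-90893115, plus) is on the chromosome of the Cxcr3 ligands, and Cx3cl1 (chr8:94772009-94782427, plus) stands alone.

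Promoter sequence was at hand from RefSeq (GRCm38.p6) for 5 of the 10 genes: Ccl12, Cxcl1, Cxcl9, Cxcl10 and Cx3cl1. The 250 bases before the start of 3 of them are printed 5′ to 3′ on the strand of the gene. Cxcl10 was chosen as the gene with the highest level per length at 4 h, Cxcl9 as its neighbour with a similar time course, and Cxcl1 as a gene with a smaller rise. Capitals mark matches to the motifs searched. The first was a kB motif, spelled GGG, any 3 bases, TTCC. The second was an interferon-stimulated response element or ISRE, spelled TTTC, any 2 bases, TTTC. The third was a gamma-activated site or GAS, spelled TTC, any 3 bases, GAA. Each was searched on both strands.
Cxcl10 (chr5:92348890-92349139, minus): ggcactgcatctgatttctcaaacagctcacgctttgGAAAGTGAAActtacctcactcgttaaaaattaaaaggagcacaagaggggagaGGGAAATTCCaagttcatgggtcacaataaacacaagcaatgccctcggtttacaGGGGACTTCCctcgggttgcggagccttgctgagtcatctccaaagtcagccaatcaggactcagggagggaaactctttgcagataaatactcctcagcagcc
Cxcl1 (chr5:90890995-90891244, plus): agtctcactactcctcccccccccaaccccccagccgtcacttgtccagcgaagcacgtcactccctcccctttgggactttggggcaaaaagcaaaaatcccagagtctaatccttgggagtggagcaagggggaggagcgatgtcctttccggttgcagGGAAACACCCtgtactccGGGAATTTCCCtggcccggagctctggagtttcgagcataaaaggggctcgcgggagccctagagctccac
Cxcl9 (chr5:92328080-92328329, minus): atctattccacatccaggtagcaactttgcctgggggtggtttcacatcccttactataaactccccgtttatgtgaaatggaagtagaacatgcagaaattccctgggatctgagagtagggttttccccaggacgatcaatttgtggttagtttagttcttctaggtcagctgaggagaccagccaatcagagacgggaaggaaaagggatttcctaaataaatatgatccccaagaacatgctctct
The Cxcl10 promoter held an ISRE match in reverse orientation, GAAAGTGAAA, at 213 to 204 bases before the start. It also held 2 kB matches, GGGAAATTCC at 159 to 150 bases and GGGGACTTCC at 104 to 95 bases. The Cxcl1 promoter held 3 kB matches and no ISRE. One was GGAAACACCC in reverse at 89 to 80 bases, and the other two, GGGAATTTCC at 71 to 62 bases and GGAATTTCCC in reverse at 70 to 61 bases, overlap. No match to the 3 motifs was found in the windows of Cxcl9, Ccl12 or Cx3cl1, which says only that these letters are not there. Of 32851 RefSeq mouse promoter windows of the same length, 4.65% held a kB match, 2.98% an ISRE match, 7.02% a GAS match, and 0.11% both a kB and an ISRE match. A match is a description of the letters and not of a bound factor.

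Library totals ran from 15097093 to 42074942 counts, and 3 libraries (Dps 4 h replicates 1 and 2, control replicate 3) exceeded 30000000. The first principal component of all tested genes held 41.7% of the variance and set every 4 h library apart from the others. Replicate 3 of MnDps at 4 h stood apart on the second component, which held 20.6%. For the chemokines described here, the 4 h fold changes of MnDps against control and against Dps are also given without it. So are most of their changes from 4 h to 24 h after MnDps. Among other named genes, values without it are given only for Tnf and Ccl19 between the injections. The marker sums and the remaining values of those genes after MnDps at 4 h include it. Kidney identity was plain, since the 8 proximal tubule markers summed to between 43240 and 68185 CPM (counts per 1000000 of a library scaled by edgeR's trimmed mean of M-values) in every library. Fold changes are log2 values with their standard error (SE) from edgeR's quasi-likelihood test in one fit of all 14 libraries. A gene was called at a Benjamini-Hochberg adjusted p under 0.05 over the 14854 genes.

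All 10 chemokines rose 4 h after Dps and all 10 rose 4 h after MnDps. The size ran from 1.43-fold for Cx3cl1 to 37.2-fold for Cxcl10 after Dps, and from 1.40-fold for Cx3cl1 to 41.3-fold for Ccl5 after MnDps. Among all tested genes, 8.33% were called higher and 6.27% lower in the Dps comparison, and 22.9% higher and 22.7% lower in the MnDps comparison. The 10 were chosen with earlier results of these data known, so the contrast with these shares is only a description. Every treated library lay above every control library for each of the 10 genes at 4 h after either injection. For genes at large, that held for 16% after Dps and 26.3% after MnDps. The median log2 fold change of the 10 was 3.26 after Dps and 3.45 after MnDps, where the medians of all tested genes were -0.02 and 0.00. Both comparisons use the same 3 control libraries. In whole-kidney RNA, more cells of a type and more RNA per cell cannot be told apart. Summed over the 10 genes, controls held 142.4 to 152.4 CPM, Dps at 4 h 456.8 to 641.9 CPM and MnDps at 4 h 436.5 to 714.1 CPM. By 24 h the sum was 162.3 to 178.7 CPM after Dps and 169.8 to 171.7 CPM after MnDps, still above each control library.

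**Figure D1:**
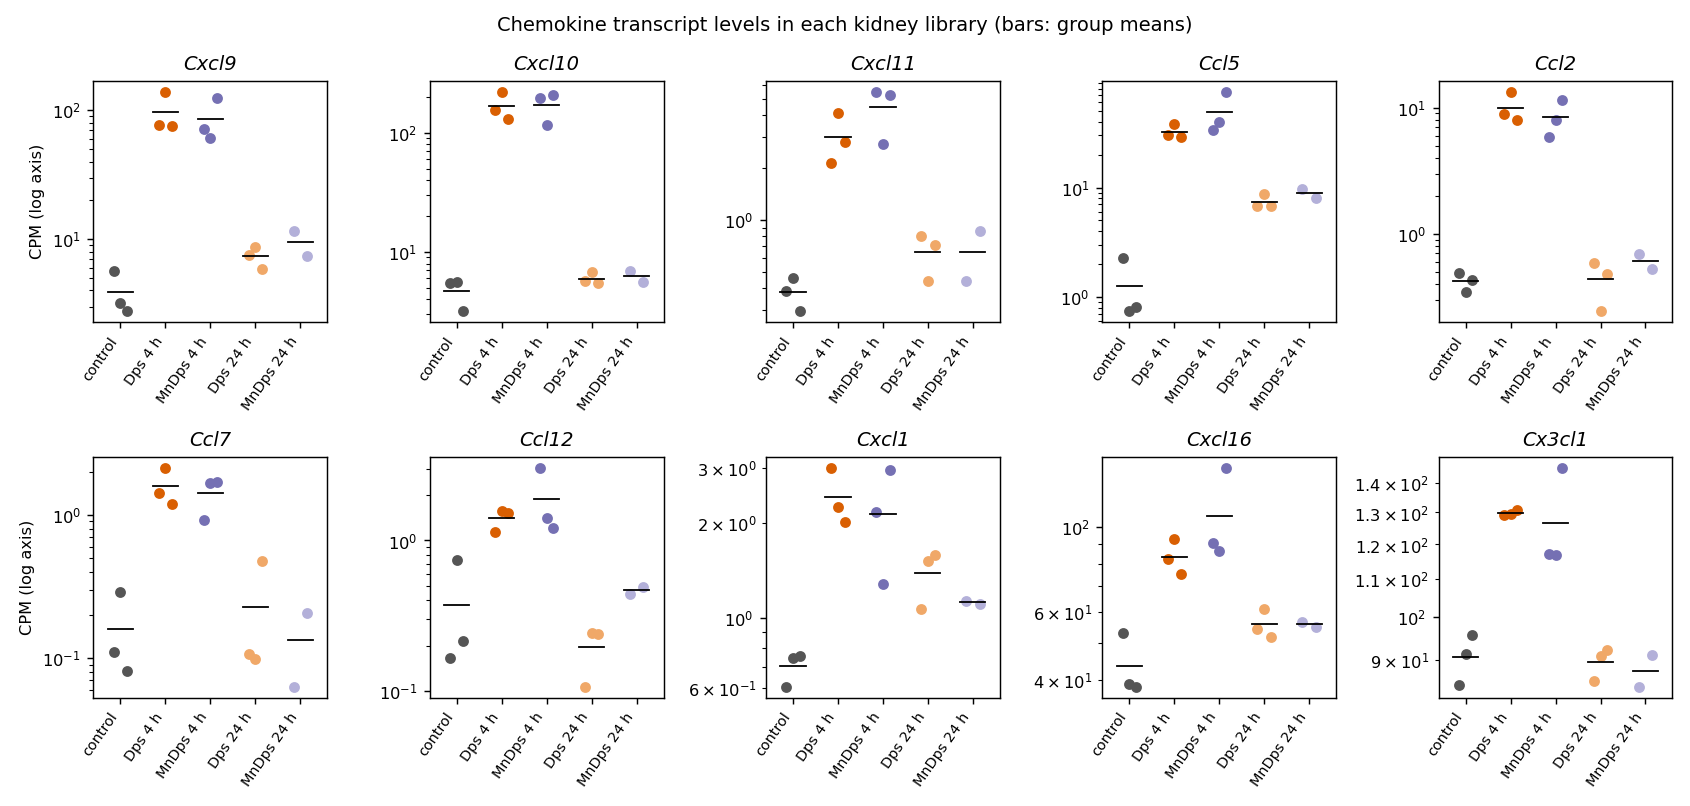
Level of each of the 10 chemokines in every library, in CPM on a log10 axis, by group (control, Dps 4 h, MnDps 4 h, Dps 24 h, MnDps 24 h). Each point is 1 library and each bar the group mean. All 4 h points lie above all control points for each gene, and at 24 h 7 of the 10 overlap the controls after Dps and 4 of the 10 after MnDps, while Ccl5, Cxcl1 and Cxcl9 lie above them after both.

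The 3 Cxcr3 ligands rose by 8.25-fold to 37.9-fold at 4 h. Cxcl10, an interferon-induced attractant of T and NK cells, measured 5.49, 5.56 and 3.20 CPM in the controls. It reached 156.0, 219.9 and 131.0 CPM in Dps at 4 h and 195.1, 117.0 and 205.5 CPM in MnDps at 4 h. Every 4 h library was therefore more than an order of magnitude above every control, and the ranges of the 2 injections overlapped. The rise was 5.22 ± 0.31 log2 after Dps (37.2-fold, adjusted p = 3.7e-07, edgeR's quasi-likelihood F-test, Benjamini-Hochberg adjustment) and 5.24 ± 0.31 after MnDps (37.9-fold, adjusted p = 3.3e-07), or 5.10 without replicate 3 of MnDps. At 24 h Cxcl10 was back to 5.66, 6.86 and 5.45 CPM after Dps and to 6.94 and 5.57 CPM after MnDps. The Dps libraries overlapped the controls, and the MnDps libraries lay just above the highest control. The 24 h differences from control, 0.40 ± 0.34 and 0.44 ± 0.38 log2, were not called (adjusted p = 0.438 and 0.467, edgeR's quasi-likelihood test).

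Cxcl9, the ligand most tied to interferon gamma, was at 5.65, 3.21 and 2.77 CPM in controls. At 4 h it measured 76.6, 138.8 and 75.4 CPM after Dps and 71.1, 61.3 and 124.1 CPM after MnDps. Replicate 2 of Dps and replicate 3 of MnDps were the highest, and the lowest treated library was still far above the controls. Cxcl9 rose by 4.70 ± 0.42 log2 after Dps (26.0-fold, adjusted p = 2.7e-05) and by 4.51 ± 0.42 after MnDps (22.8-fold, adjusted p = 2.4e-05, both edgeR's quasi-likelihood test). Without replicate 3 of MnDps, the rise after MnDps was 4.15 log2 (adjusted p = 6.9e-05, edgeR). At 24 h it was at 7.58, 8.67 and 5.88 CPM after Dps and 11.5 and 7.37 CPM after MnDps. All 5 of these libraries lay above the highest control, but the differences, 0.98 ± 0.46 and 1.31 ± 0.50 log2, were not called (adjusted p = 0.159 and 0.108, edgeR). A fit of only the groups compared called both, at 0.96 and 1.29 log2 (adjusted p = 0.0233 and 0.0355, edgeR), and DESeq2 called the MnDps difference at 1.29 (adjusted p = 0.0344).

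Cxcl11 transcripts were rare, with 0.384, 0.459 and 0.296 CPM in controls, which is 7 to 11 counts per library. They reached 2.12, 4.11 and 2.82 CPM after Dps and 5.47, 2.72 and 5.26 CPM after MnDps at 4 h. The 4 h groups overlapped each other and lay clear of the controls, with a rise of 3.04 ± 0.39 log2 (8.25-fold, adjusted p = 3.7e-05) and 3.60 ± 0.39 log2 (12.1-fold, adjusted p = 4.0e-06, edgeR's quasi-likelihood test), the latter 3.47 without replicate 3 of MnDps. At 24 h, libraries of Dps held 0.801, 0.441 and 0.717 CPM and those of MnDps 0.441 and 0.86 CPM, overlapping the controls. Reads of Cxcl10 and Cxcl11 could in part be credited to Art3, or the reverse, if strand was not used in counting, and that setting is not given in the sources used here. Art3 itself was at 2.50 CPM on average in controls and 5.54 and 5.55 CPM at 4 h, and it rose by 1.10 ± 0.24 and 1.11 ± 0.25 log2 (adjusted p = 0.00586 and 0.00197, edgeR). Its highest level in any library was 6.76 CPM, far below that of Cxcl10 at 4 h but above every Cxcl11 value, the highest of which was 5.47 CPM. How much of the Cxcl11 count could come from Art3 was not tested.

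The 3 Ccr2 ligands rose from very low levels. Ccl2, the main monocyte attractant, was at 0.494, 0.344 and 0.431 CPM in controls, or 6 to 16 counts per library. At 4 h it measured 8.83, 13.3 and 7.92 CPM after Dps and 5.86, 8.04 and 11.4 CPM after MnDps. The lowest treated library was thus over 10 times the highest control. The rise was 4.55 ± 0.33 log2 (23.4-fold, adjusted p = 3.6e-08) after Dps and 4.29 ± 0.33 log2 (19.6-fold, adjusted p = 9.0e-08) after MnDps by edgeR's quasi-likelihood test, or 4.01 without replicate 3 of MnDps. At 24 h Ccl2 was at 0.587, 0.245 and 0.478 CPM after Dps and at 0.694 and 0.532 CPM after MnDps. The Dps libraries lay on both sides of the controls, with a difference of 0.03 ± 0.49 log2 (adjusted p = 0.978, edgeR), and the MnDps libraries lay just above them with 0.49 ± 0.52 log2 (adjusted p = 0.554, edgeR).

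Ccl7, a monocyte attractant next to Ccl2 on the chromosome, was at 0.11, 0.287 and 0.0807 CPM in controls, where it rested on 2 to 5 counts. It measured 1.42, 2.13 and 1.19 CPM after Dps and 0.912, 1.67 and 1.69 CPM after MnDps at 4 h. These levels were low, yet all 6 libraries stood above the controls, and the rise was 3.47 ± 0.54 log2 (11.1-fold, adjusted p = 0.00026) and 3.29 ± 0.56 log2 (9.80-fold, adjusted p = 0.000256, edgeR's quasi-likelihood test). Ccl12, the third Ccr2 ligand, was at 0.165, 0.745 and 0.215 CPM in controls, with replicate 2 the highest. It measured 1.13, 1.57 and 1.52 CPM after Dps and 3.04, 1.40 and 1.21 CPM after MnDps at 4 h. The rise of Ccl12 was the smallest of the 3, at 2.01 ± 0.48 log2 (4.03-fold, adjusted p = 0.0092) and 2.44 ± 0.47 log2 (5.42-fold, adjusted p = 0.000741, edgeR). Without replicate 3 of MnDps, the rise after MnDps was 3.16 log2 for Ccl7 and 2.66 for Ccl12, and both were still called. The call of Ccl12 after Dps was lost without replicate 3 of the controls, where the value was 1.62 (adjusted p = 0.0656, edgeR). At 24 h neither gene was called against control. Ccl7 was at 0.107, 0.0979 and 0.478 CPM after Dps and 0.063 and 0.205 CPM after MnDps. Ccl12 was at 0.107, 0.245 and 0.239 CPM after Dps and 0.441 and 0.491 CPM after MnDps, within the range of the controls but for replicate 1 of Dps, which was lower. Ccl11, the eotaxin gene between them, was called 4 h after MnDps at 1.67 ± 0.56 log2 (adjusted p = 0.0226, edgeR) and was not called after Dps at 1.49 ± 0.55 (adjusted p = 0.079, edgeR).

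Ccl5, an attractant of T cells and myeloid cells, rose as steeply and was the member that stayed clearly high. Controls measured 2.25, 0.745 and 0.807 CPM, with replicate 1 the highest. At 4 h Ccl5 reached 30.1, 37.8 and 29.1 CPM after Dps and 33.3, 39.8 and 74.5 CPM after MnDps. At 24 h it was at 6.72, 8.72 and 6.83 CPM after Dps and 9.77 and 7.94 CPM after MnDps. All 24 h libraries lay between the controls and the 4 h libraries, without overlap on either side. Against control, Ccl5 rose by 4.77 ± 0.41 log2 (27.2-fold, adjusted p = 9.5e-06) and 5.37 ± 0.41 log2 (41.3-fold, adjusted p = 2.8e-06) at 4 h by edgeR's quasi-likelihood test. At 24 h it was higher by 2.64 ± 0.45 log2 after Dps (6.25-fold, adjusted p = 0.00442) and by 2.89 ± 0.48 log2 after MnDps (7.39-fold, adjusted p = 0.00445, edgeR). Replicate 3 of MnDps at 4 h was the highest of all libraries, and without it the 4 h rise after MnDps was 4.94 log2 (adjusted p = 1.8e-07, edgeR).

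Cxcl1, a neutrophil attractant, moved less. It was at 0.604, 0.745 and 0.754 CPM in controls, at 3.0, 2.25 and 2.01 CPM in Dps at 4 h and at 2.17, 1.28 and 2.94 CPM in MnDps at 4 h. The rise was 1.78 ± 0.30 log2 (3.44-fold, adjusted p = 0.000638) after Dps and 1.57 ± 0.31 log2 (2.97-fold, adjusted p = 0.000898) after MnDps by edgeR's quasi-likelihood test, or 1.27 (adjusted p = 0.00542, edgeR) without replicate 3 of MnDps. At 24 h Cxcl1 measured 1.07, 1.52 and 1.58 CPM after Dps and 1.13 and 1.11 CPM after MnDps, all above the highest control. The 24 h difference passed narrowly after Dps, at 0.97 ± 0.33 log2 (1.96-fold, adjusted p = 0.0482), and was not called after MnDps, at 0.66 ± 0.38 log2 (adjusted p = 0.258, edgeR). The Dps call was lost without a count filter (0.97, adjusted p = 0.0515, edgeR), with limma voom (0.96, adjusted p = 0.051), and without any single library of Dps at 24 h or control. It was also lost with the length and GC offset (0.71, adjusted p = 0.171, edgeR) and the term for deep libraries (1.10, adjusted p = 0.0611, edgeR). Leaving out some single libraries of the other groups had the same outcome.

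The membrane-anchored pair were the most abundant members at rest and rose the least. Cxcl16, the Cxcr6 ligand, was at 52.8, 39.0 and 38.4 CPM in controls, at 82.5, 92.6 and 75.1 CPM in Dps at 4 h and at 90.8, 86.5 and 142.1 CPM in MnDps at 4 h. The rise was 0.95 ± 0.17 log2 (1.93-fold, adjusted p = 0.00231) after Dps and 1.30 ± 0.18 log2 (2.46-fold, adjusted p = 1.0e-04) after MnDps by edgeR's quasi-likelihood test. Replicate 3 of MnDps was again the highest, and without it the MnDps rise was 1.03 log2 (adjusted p = 2.3e-05, edgeR). At 24 h Cxcl16 was at 54.2, 61.2 and 51.7 CPM after Dps and 56.6 and 54.8 CPM after MnDps. The Dps libraries overlapped the controls and the MnDps libraries lay just above them, with 0.36 ± 0.18 and 0.36 ± 0.20 log2 (adjusted p = 0.159 and 0.231, edgeR). The Dps difference was called with limma voom (0.44, adjusted p = 0.0244) and without replicate 3 of MnDps at 4 h (0.37, adjusted p = 0.0273, edgeR). Zmynd15, which overlaps Cxcl16 on the other strand, also rose at 4 h, by 1.08 ± 0.13 and 0.84 ± 0.13 log2, to 17.2 and 14.6 CPM from 8.16 CPM (adjusted p = 2.1e-05 and 0.000169, edgeR), and the same limit on strand applies to the pair.

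Cx3cl1, known as fractalkine, was at 84.5, 91.3 and 95.8 CPM in controls, at 129.2, 129.5 and 130.7 CPM in Dps at 4 h and at 117.3, 116.8 and 145.4 CPM in MnDps at 4 h. The 3 Dps libraries were tightly grouped, and all 4 h libraries lay above the controls. The rise was small and precise, at 0.52 ± 0.09 log2 (1.43-fold, adjusted p = 0.000468) and 0.48 ± 0.09 log2 (1.40-fold, adjusted p = 0.000387) by edgeR's quasi-likelihood test. Without replicate 3 of MnDps it was 0.36 log2 after MnDps (adjusted p = 0.00106, edgeR). At 24 h Cx3cl1 measured 85.4, 90.8 and 92.1 CPM after Dps and 84.1 and 91.0 CPM after MnDps, at the level of the controls, with differences of -0.02 ± 0.09 and -0.05 ± 0.10 log2 (adjusted p = 0.902 and 0.765, edgeR).

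**Figure D2:**
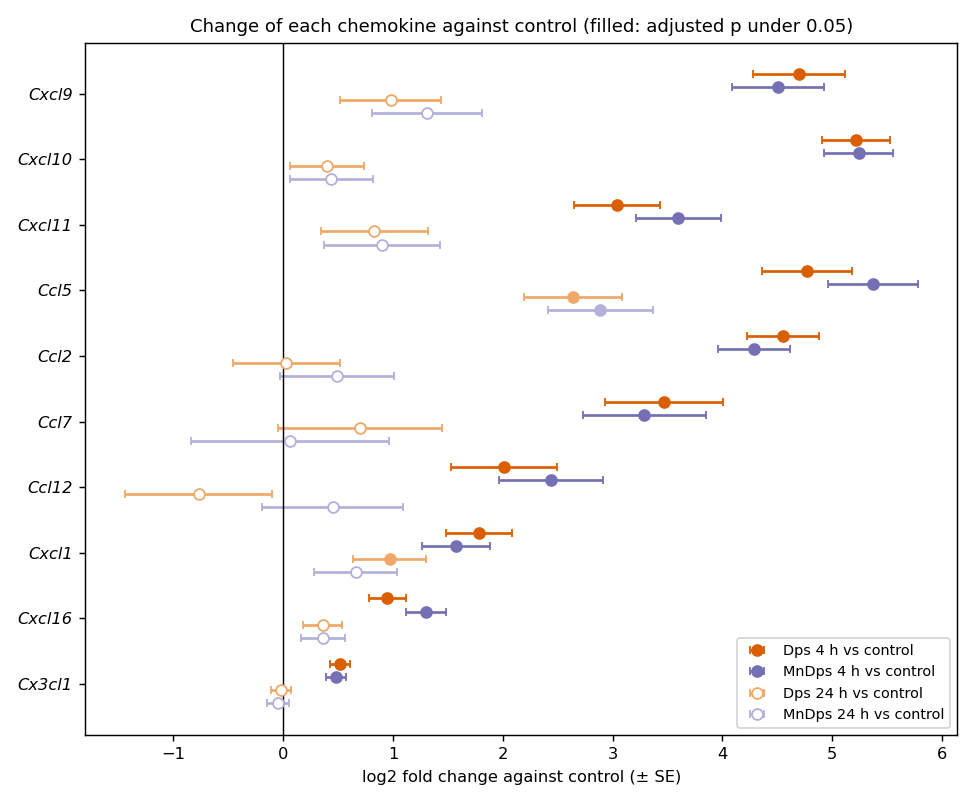
Log2 fold change against control of the 10 chemokines at 4 h and 24 h after Dps and MnDps, from edgeR's fit of all 14 libraries, with the SE as bars and filled points for genes called. At 4 h all 20 values lie above 0, from 0.48 for Cx3cl1 after MnDps to 5.37 for Ccl5 after MnDps, and at 24 h Ccl5 has the highest values (2.64 and 2.89).

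The counts at 24 h were far smaller. Against control, 2 of the 10 were called higher after Dps (Ccl5 and Cxcl1) and 1 of the 10 after MnDps (Ccl5), where 9.64% and 4.93% of all tested genes were called higher and 10.4% and 8.39% lower. Libraries lay above all controls for 3 of the 10 after Dps (Ccl5, Cxcl1 and Cxcl9) and for 6 after MnDps (Cxcl9, Cxcl10, Ccl2, Ccl5, Cxcl1 and Cxcl16), beside 18.6% and 22.7% of all tested genes. The median log2 fold change of the 10 was 0.55 after Dps and 0.47 after MnDps, with 0.00 and 0.02 for all tested genes.

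Compared directly, 24 h with 4 h, all 10 chemokines fell after Dps and 9 of 10 fell after MnDps. Among all tested genes, 22.6% and 11.7% were called lower. Every 24 h library lay below every 4 h library for all 10 genes after both injections, beside 29.3% and 26.4% of all tested genes. Cxcl10 fell by 4.82 ± 0.30 log2 after Dps (adjusted p = 5.7e-07) and by 4.80 ± 0.36 log2 after MnDps (adjusted p = 5.3e-06, edgeR's quasi-likelihood test). Ccl2 fell by 4.52 ± 0.33 and 3.80 ± 0.38 log2 (adjusted p = 5.3e-08 and 3.8e-06, edgeR). Cxcl9 fell by 3.72 ± 0.39 and 3.21 ± 0.45 log2 (adjusted p = 5.6e-05 and 0.000861, edgeR). Ccl5 fell less, by 2.12 ± 0.33 and 2.48 ± 0.38 log2 (adjusted p = 0.000376 and 0.001, edgeR). Cxcl1 fell by 0.81 ± 0.28 log2 after Dps (adjusted p = 0.0273, edgeR), and its difference after MnDps, -0.91 ± 0.34 log2, was the one not called (adjusted p = 0.0663, edgeR). Cxcl16 fell by 0.58 ± 0.17 and 0.93 ± 0.20 log2 and Cx3cl1 by 0.54 ± 0.09 and 0.53 ± 0.10 log2. Some of these calls rested on single libraries. After Dps, Cxcl1 was not called with the term for deep libraries (-0.59, adjusted p = 0.251, edgeR) or without replicate 1 at 4 h (-0.63), replicate 1 at 24 h (-0.66) or replicate 2 at 24 h (-0.88), and Cxcl16 was not called with that term (-0.59) or without replicate 2 at 4 h (-0.51) or replicate 3 at 24 h (-0.54). After MnDps, Ccl12, at -1.99 ± 0.53, was not called with the length and GC offset (-1.61) or without replicate 1 at 4 h (-1.46) or either 24 h library (-1.94 and -2.08). Cxcl16 was not called without replicate 2 at 24 h (-0.91), and Cxcl1 was called without replicate 2 at 4 h (-1.18). Without replicate 3 of MnDps at 4 h, the same 9 were called after MnDps, with Cxcl10 at -4.66, Ccl2 at -3.53, Cxcl9 at -2.85, Ccl5 at -2.06, Cxcl16 at -0.68 and Cx3cl1 at -0.42, and with Cxcl1 at -0.62.

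The share of the 4 h rise in mean CPM that was left at 24 h is given as a description without a test. It was 0.753% after Dps and 0.895% after MnDps for Cxcl10, 3.76% and 6.79% for Cxcl9, and 10.4% and 6.61% for Cxcl11. For Ccl5 it was 19.8% and 15.8%, for Cxcl16 30.7% and 19.5%, and for Cxcl1 40.0% and 29.3%. These 3 had the largest shares after each injection. For the Ccr2 ligands it was 0.144% and 2.37% for Ccl2, 4.83% and -1.99% for Ccl7, and -17.3% and 6.06% for Ccl12, and for Cx3cl1 -2.80% and -8.39%, where a negative share means a 24 h mean below the control mean. The shares of Ccl2, Ccl7 and Ccl12 after Dps, of Ccl7 after MnDps and of Cx3cl1 after both rest on 24 h differences whose sign changed when single libraries were left out. Both injections are set against the same control libraries.

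To rank the 10 genes by level, values were taken per length, as CPM per kilobase of the longest annotated transcript. In controls the order of mean levels was Cx3cl1 (27.3 CPM per kb), Cxcl16 (16.1), Cxcl10 (3.51), Ccl5 (2.38), Cxcl9 (1.34), Cxcl1 (0.735), Ccl12 (0.698), Ccl2 (0.52), Cxcl11 (0.24) and Ccl7 (0.199). In that order the library ranges of neighbours overlapped from Cxcl10 to Cxcl9, from Cxcl1 to Ccl2, and from Cxcl11 to Ccl7. The membrane-anchored pair led the control kidney. At 4 h after Dps the order opened with Cxcl10 (125 CPM per kb), Ccl5 (60.8), Cx3cl1 (39.2), Cxcl9 (33.5), Cxcl16 (30.9) and Ccl2 (12.3), with overlap from Cx3cl1 to Cxcl16, and the other 4 lay between 1.91 and 2.62. After MnDps it opened with Cxcl10 (128 CPM per kb) and Ccl5 (92.5), whose ranges overlapped, ahead of Cxcl16 (39.4), Cx3cl1 (38.2), Cxcl9 (29.6), which overlapped one another, and Ccl2 (10.4). At 24 h Cx3cl1 led again (27.0 CPM per kb after Dps and 26.4 after MnDps), then Cxcl16 (20.6 in both) and then Ccl5 (14 and 16.7), with no overlap among these 3. Cxcl10 made up 4.73% to 7.93% of the summed per-length level of the 10 in controls, 36.8% to 42.6% in Dps at 4 h and 32.3% to 45.0% in MnDps at 4 h. Ccl5 made up 2.70% to 7.40% in controls, 18.6% to 20.8% in Dps at 4 h, 19.6% to 30.7% in MnDps at 4 h and 18.5% to 23.8% at 24 h.

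**Figure D3:**
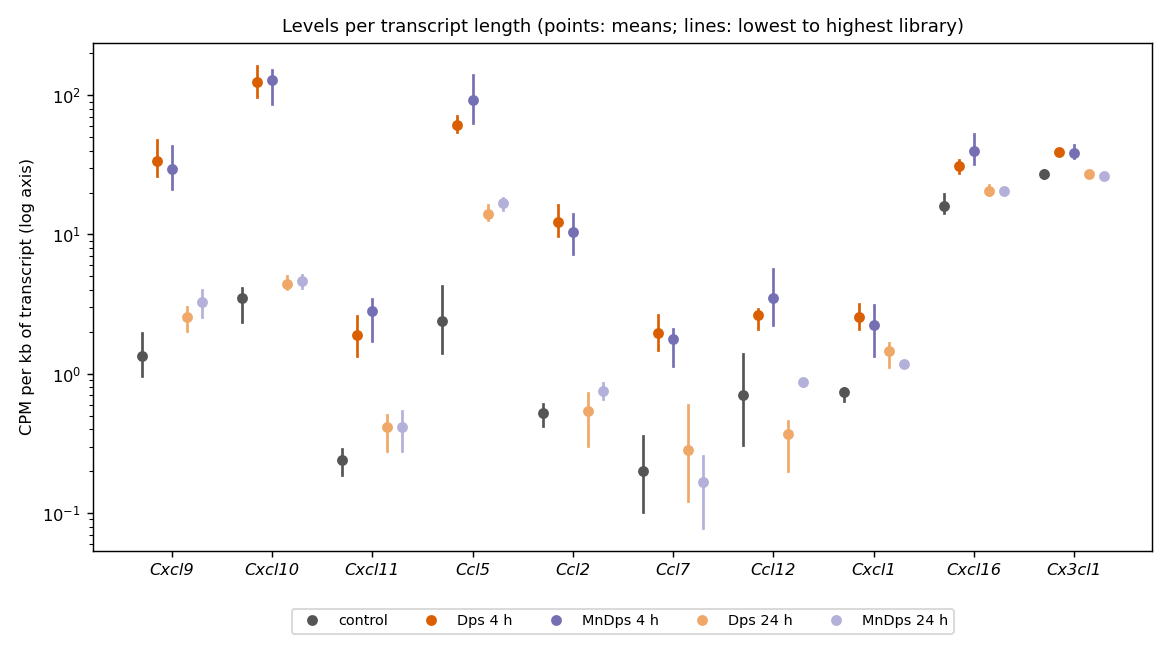
Level per length (CPM per kb, log10 axis) of the 10 chemokines in each group. Points are group means and lines run from the lowest to the highest library. Cx3cl1 and Cxcl16 are highest in controls (27.3 and 16.1) and at 24 h, and Cxcl10 is highest at 4 h (125 and 128).

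Whether MnDps differed from Dps was tested directly at each time. At 4 h none of the 10 was called by edgeR's quasi-likelihood test, none had an unadjusted p under 0.05, and DESeq2 and limma voom called none, while 41.5% of all tested genes were called. Libraries of the 2 injections overlapped for all 10 at 4 h, while 26.5% of all tested genes lay wholly higher and 26.5% wholly lower after MnDps. The interval of the difference, MnDps minus Dps, was narrow for Cx3cl1 (-0.04 log2, 95% confidence interval -0.22 to 0.14). It was wider for Cxcl10 (0.03, -0.50 to 0.55), Cxcl9 (-0.19, -0.92 to 0.54), Ccl2 (-0.26, -0.75 to 0.23), Ccl7 (-0.18, -0.97 to 0.62), Ccl12 (0.43, -0.37 to 1.23) and Cxcl1 (-0.21, -0.77 to 0.35). The values for Ccl5 (0.60, -0.04 to 1.24), Cxcl11 (0.56, -0.05 to 1.17) and Cxcl16 (0.35, -0.02 to 0.72) leaned towards MnDps with intervals that reached just past 0. For Ccl5 that interval spans 0.975-fold to 2.36-fold. Without replicate 3 of MnDps the values were 0.15 for Ccl5, 0.40 for Cxcl11, 0.06 for Cxcl16, 0.63 for Ccl12, -0.14 for Cxcl10, -0.33 for Ccl7, -0.54 for Cxcl1 and -0.58 for Cxcl9. For Ccl2 the value was then -0.56 (adjusted p = 0.0722) and for Cx3cl1 -0.17 (adjusted p = 0.0774), and none of the 10 was called by edgeR. Without replicate 2 of MnDps, Cxcl11 was called at 0.82 and Cxcl16 at 0.47, without replicate 2 of Dps Cxcl11 was called at 0.87, and without replicate 1 of MnDps Ccl5 was called at 0.81 (each edgeR). With an offset for transcript length and GC content Ccl2 was called lower after MnDps, at -0.71 (adjusted p = 0.0204, edgeR).

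At 24 h none of the 10 differed between the injections by edgeR's test, none had an unadjusted p under 0.05, and DESeq2 and limma voom called none, with 0.815% of all tested genes called. With 3 and 2 libraries the intervals were wide: 0.24 for Ccl5 (-0.61 to 1.09), 0.04 for Cxcl10 (-0.77 to 0.86), 0.33 for Cxcl9 (-0.71 to 1.37) and 0.46 for Ccl2 (-0.66 to 1.58). Cx3cl1 (-0.03, -0.23 to 0.17) and Cxcl16 (0.00, -0.42 to 0.42) had the narrowest. Both MnDps libraries lay above all 3 Dps libraries for Ccl12 alone, at 1.22 ± 0.71 log2 (-0.29 to 2.73), on counts of a few reads, where 18.6% of all tested genes showed that order and 19.5% the reverse. The interaction, the change from 4 h to 24 h after MnDps minus that after Dps, was called for none of the 10 by edgeR, none had an unadjusted p under 0.05, and DESeq2 and limma voom called none, with 29.4% of all tested genes called. It was 0.72 ± 0.58 log2 for Ccl2 (95% interval -0.50 to 1.95), -0.36 ± 0.49 for Ccl5 (-1.42 to 0.71) and 0.01 ± 0.13 for Cx3cl1 (-0.26 to 0.28).

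**Figure D4:**
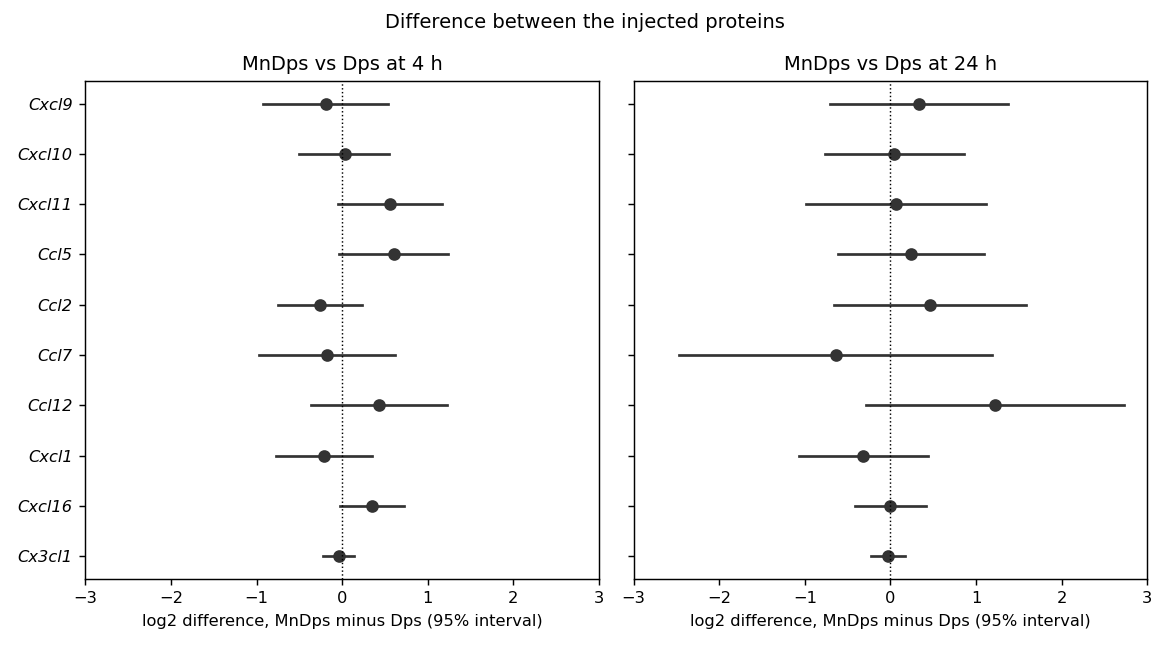
Difference MnDps minus Dps in log2 for the 10 chemokines at 4 h and 24 h, from edgeR's fit, with 95% confidence intervals as bars and a line at 0. Every interval includes 0; that of Cx3cl1 at 4 h is the narrowest (-0.22 to 0.14) and that of Ccl7 at 24 h is the widest (-2.47 to 1.19).

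Among the other chemokine ligands, 31 were in the table and 20 had enough counts to test. At 4 h 8 rose and 2 fell after Dps (median of the 20, 1.46 log2), and 11 rose and 2 fell after MnDps (median 1.35). At 24 h 1 rose and none fell after either. Of all tested genes, 8.33% were called higher and 6.27% lower at 4 h after Dps, and 22.9% and 22.7% after MnDps. The shares called higher at 24 h were 9.64% and 4.93%, so the counts there were near or below the background. The neutrophil attractant Cxcl2 was nearly absent from controls (0.0191 CPM on average) and reached 0.467 and 0.443 CPM at 4 h. Cxcl13, an attractant of B cells, was called in all 4 comparisons, at 3.77 ± 0.32 and 3.86 ± 0.32 log2 at 4 h and 1.78 ± 0.38 and 1.96 ± 0.41 at 24 h (adjusted p = 2.9e-07, 2.3e-07, 0.00673 and 0.00771, edgeR). Ccl22, a product of dendritic cells, rose by 3.42 ± 0.50 and 3.29 ± 0.51 log2 at 4 h. Ccl4, a product of activated macrophages and T cells, rose by 2.57 ± 0.38 and 2.61 ± 0.38. Ccl19, the Ccr7 ligand, rose by 2.00 ± 0.29 and 2.71 ± 0.29, and was higher after MnDps than after Dps at 4 h by 0.71 ± 0.25 (adjusted p = 0.0391, edgeR). Between the injections at 4 h, 2 of the 20 were called higher and 1 lower after MnDps, beside 41.5% of all tested genes called. The Ccl19 call was lost without replicate 3 of MnDps, at 0.27 (adjusted p = 0.255, edgeR), an alternative chosen after seeing the data. The 2 that fell at 4 h were Cxcl12, at -0.48 ± 0.12 and -0.86 ± 0.12 log2, and Cxcl14, at -0.76 ± 0.16 and -0.43 ± 0.16, both named after their values were seen.

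Of 18 receptors, 9 could be tested, and 2 rose and 2 fell after Dps at 4 h, 2 rose and 3 fell after MnDps at 4 h, 1 rose after Dps at 24 h and 2 rose after MnDps at 24 h. Among all tested genes, 8.33% were called higher and 6.27% lower after Dps at 4 h, 22.9% and 22.7% after MnDps at 4 h, and 9.64% and 4.93% higher at 24 h after Dps and MnDps, so the MnDps counts at 4 h were near the background. Cx3cr1, the fractalkine receptor, fell at 4 h by 1.09 ± 0.23 and 1.22 ± 0.23 log2 (adjusted p = 0.00334 and 0.000676) and rose at 24 h after MnDps by 0.90 ± 0.23 (adjusted p = 0.0208, edgeR), with 0.54 ± 0.21 after Dps (adjusted p = 0.0827, edgeR). Ccr2, the receptor of Ccl2, fell at 4 h after MnDps, at -0.84 ± 0.26 (adjusted p = 0.0142), and was at -0.35 ± 0.24 after Dps (adjusted p = 0.365, edgeR). Ccr1 was at 0.89 ± 0.36 and 0.55 ± 0.39 at 4 h, Cxcr3 at -1.01 ± 0.52 and -0.70 ± 0.53, and Cxcr6 at -0.78 ± 0.46 and -1.15 ± 0.50, and none of these 3 was called. Cxcr2, the receptor of Cxcl1, was too rare to test, with 41 counts in all libraries together, and so was the atypical receptor Ackr1, with 53. Ccr7, a receptor of dendritic cells on their way to lymph nodes, was called in all 4 comparisons, at 2.40 ± 0.43 and 2.79 ± 0.43 log2 at 4 h and 2.55 ± 0.44 and 3.56 ± 0.44 at 24 h. Xcr1, a receptor of cross-presenting dendritic cells, fell at 4 h, by 1.55 ± 0.48 and 1.78 ± 0.52 log2.

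**Figure D5:**
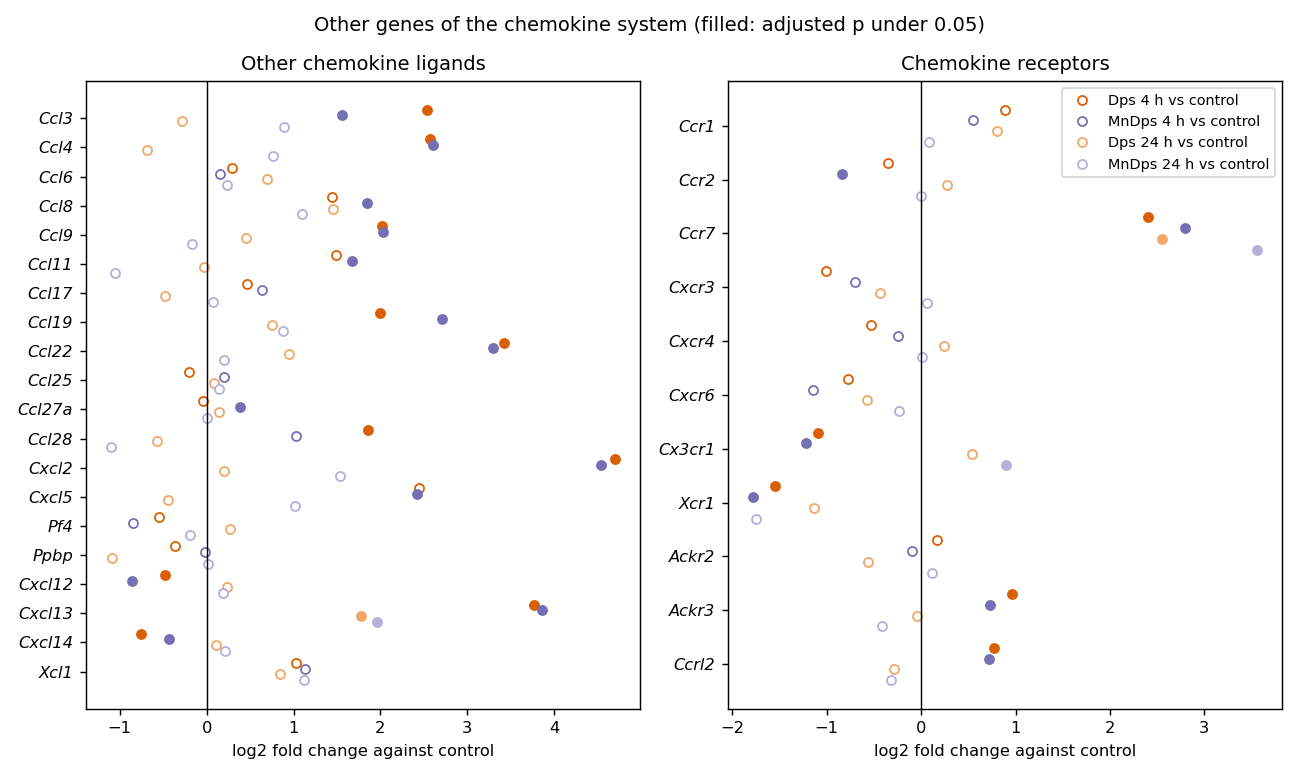
Log2 fold change against control of the tested genes among other chemokine ligands (left) and receptors with the atypical ones (right, all but 1 of those tested), at 4 h and 24 h after Dps and MnDps. Each point is 1 gene in 1 comparison, filled where it was called (adjusted p under 0.05, edgeR); Cxcl13 and Ccr7 are filled in all 4 comparisons, and Cx3cr1 lies below 0 at 4 h and above 0 at 24 h.

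Of 5 atypical receptors, which bind their ligands without signalling through G proteins, 3 could be tested and 2 rose at 4 h after each injection, and none was called at 24 h. The 2 that rose were Ackr3 (0.96 ± 0.20 and 0.73 ± 0.20 log2) and Ccrl2 (0.77 ± 0.20 and 0.72 ± 0.21). At 4 h 8.33% of all tested genes were called higher after Dps and 22.9% after MnDps. All 6 genes for shedding and processing of chemokines were tested. At 4 h 1 rose after Dps, and 1 rose and 4 fell after MnDps, while 2 fell at 24 h after each. Among all tested genes 22.7% were called lower after MnDps at 4 h, and 10.4% and 8.39% at 24 h after Dps and MnDps. Rhbdf2, a partner of Adam17, rose at 4 h by 0.87 ± 0.11 and 0.67 ± 0.12 log2. Adam10 was at 0.06 ± 0.14 after Dps and fell by 0.51 ± 0.14 after MnDps, and Adam17 was at -0.01 ± 0.08 and fell by 0.22 ± 0.08. Dpp4, which trims the ends of Cxcl9, Cxcl10 and Cxcl11, was at -0.20 ± 0.09 and fell by 0.52 ± 0.09 after MnDps at 4 h, and fell by 0.36 ± 0.09 and 0.47 ± 0.11 at 24 h.

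Of 19 transcription regulators and inducing cytokines, 16 were tested, and 13 rose at 4 h after each injection, with none lower. At 24 h 1 rose after Dps and 3 after MnDps. The shares of all tested genes called higher were 8.33% and 22.9% at 4 h, and 9.64% and 4.93% at 24 h. Irf7, a driver of interferon genes, rose by 4.75 ± 0.25 and 4.94 ± 0.25 log2 at 4 h and by 3.11 ± 0.24 and 3.85 ± 0.25 at 24 h. Stat2, a mediator of interferon signals, rose by 2.91 ± 0.13 and 2.78 ± 0.13 and Irf1 by 2.72 ± 0.22 and 3.19 ± 0.22 at 4 h. Relb, an NF-kB subunit, and Irf9, a partner of Stat2, were the other 2 called at 24 h after MnDps, at 0.73 ± 0.21 and 0.45 ± 0.13. Of the cytokines, Tnf rose by 2.64 ± 0.42 and 1.59 ± 0.48 at 4 h. It was lower after MnDps than after Dps by 1.05 ± 0.35 log2 (adjusted p = 0.0229, edgeR), with -1.21 (adjusted p = 0.0306, edgeR) without replicate 3 of MnDps. Between the injections at 4 h, 1 of the 16 was called higher and 4 lower after MnDps, beside 41.5% of all tested genes called. Ifng and Ifnb1 were too rare to test, with 25 counts and 1 count in all libraries together.

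Markers of cells that make or follow chemokines were set beside these values. The 12 monocyte and macrophage markers summed to 144.7 to 196.4 CPM in controls, 146.6 to 163.8 CPM after Dps and 142.6 to 165.6 CPM after MnDps at 4 h, and to 231.8 to 265.5 and 236.2 to 242.0 CPM at 24 h. At 4 h 3 rose and 3 fell after Dps and 4 rose and 4 fell after MnDps. At 24 h 8 and 7 rose with none lower. Of all tested genes, 8.33% and 22.9% were called higher and 6.27% and 22.7% lower at 4 h. For 24 h the shares higher were 9.64% and 4.93%. The sum was higher at 24 h than at 4 h, but members differed. Ly6c2 averaged 0.896 CPM in controls, 4.38 and 4.31 CPM at 4 h after Dps and MnDps, and 1.61 and 2.09 CPM at 24 h. In the same order Itgam averaged 1.33, then 4.98 and 3.51, then 2.54 and 2.99 CPM. C1qa went the other way, at 16.4, then 8.43 and 11.7, then 32.6 and 33.6 CPM. The 8 neutrophil markers summed to 0.688 to 1.76 CPM in controls, 4.72 to 7.90 CPM after Dps and 11.1 to 19.2 CPM after MnDps at 4 h, with 3 of 4 tested called higher in each. Mmp8 and Camp were at 0 in every control library, and Camp was at 0 in every other library but those of MnDps at 4 h. At 24 h the 8 markers summed to 1.91 to 2.96 CPM after Dps and 1.80 to 2.08 CPM after MnDps. The 8 T cell markers summed to 5.52 to 10.3 CPM in controls, 5.15 to 5.31 CPM after Dps and 4.91 to 7.91 CPM after MnDps at 4 h, and 7.26 to 9.08 and 7.66 to 8.64 CPM at 24 h. The 7 NK cell markers summed to 1.10 to 4.23 CPM in controls and to 1.82 to 4.92 CPM in the other libraries. The 8 endothelial markers summed to 407.9 to 461.4 CPM in controls and to 264.7 to 360.9 and 290.0 to 352.4 CPM at 4 h, with 5 of 8 lower in each, and to 474.7 to 540.6 and 531.8 to 585.3 CPM at 24 h. The 5 adipocyte markers summed to 41.3 to 76.5 CPM in controls, 97.1 to 160.7 CPM at 4 h, 98.7 to 161.3 CPM after Dps at 24 h and 53.1 to 139.7 CPM after MnDps at 24 h, so the Dps sums lay above the controls at 24 h and the MnDps sums overlapped them. The part of each of these shifts in the chemokine values was not tested.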

How the data were processed

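Kidney mRNA libraries (14) were made with a stranded TruSeq kit and sequenced as read pairs, per the labels' protocols. Alignment used STAR and counting used featureCounts, both on mm10, per the submitters' processing notes. Not given in the sources used here were tool versions, gene models and the strand setting. Values deposited are raw counts per gene symbol. Groups came from the labels, which carry no replicate numbers, so libraries were numbered in series order.

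The filterByExpr step of edgeR kept 14854 of 24421 genes, and CPM values use library sizes scaled by the trimmed mean of M-values. A single fit of 5 group means (edgeR 4.0.16 in R 4.3.3, robust quasi-likelihood, 9 residual degrees of freedom) gave 9 comparisons, each adjusted by Benjamini-Hochberg over all tested genes. The SE is the size of the log2 fold change over the square root of F. The biological coefficient of variation was 10.7%, and the fit was tested on simulated data. Alternatives were no filter or a stricter one (1 CPM in 3 libraries), median-of-ratios scaling, DESeq2 1.42.0, limma 3.58.1 (voom, library weights), separate fits of the groups in each comparison, an offset for transcript length and GC content (known for 96.5% of tested genes), a term for libraries above 30000000 counts, and each library left out in turn. Names cover the 10 chemokines, receptors of members, and up to 4 called genes with the largest change in each list and comparison with control. The members and lists were chosen with earlier results of these data known. Members of the receptor and regulator lists that are not named are counted but not reported here by value.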

Additional observations from a re-analysis of the deposited data

How the results depend on the processing

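The rises at 4 h held in 219 of 220 alternative values after Dps (Ccl12 without control replicate 3 was the exception) and in 220 of 220 after MnDps. Members passed the threshold in 32 of 216 values for Dps and 24 of 216 for MnDps at 24 h, in 5 of 220 and 0 of 218 for MnDps against Dps at 4 h and 24 h, in 213 and 194 of 220 for 24 h against 4 h after Dps and MnDps, and in 0 of 220 for the interaction; totals under 220 arise where a filter dropped a member. Of 1970 values, 1866 kept sign and side, 65 changed sign, 28 lost and 11 gained a call, and the causes were not tested. No paired analysis was possible because the labels give no replicate numbers. Ccl7, Ccl12 and Cxcl11 rest on few counts in controls and at 24 h, which limits their precision. Ccl5 was called at 24 h in every alternative.

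With the length and GC offset, genes called numbered 3814 for Dps at 4 h (2168 in the analysis reported), 1318 for Dps at 24 h (2979), 1103 for MnDps at 24 h (1978), 3296 for MnDps against Dps at 4 h (6158) and 2161 for the interaction (4368). It called 1 chemokine for Dps at 24 h and 1 for MnDps against Dps at 4 h. It turned Ccl2 at 24 h after Dps to -0.25, Cxcl10 between injections at 4 h to -0.33, and the interaction of Ccl7 to 0.17, Ccl5 to 0.33, Cxcl1 to 0.48 and Cx3cl1 to -0.09. The share of called genes that were higher moved from 57.1% to 32.4% for Dps at 4 h under this offset, and from 46.6% to 28.8% for the interaction.

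With the term for deep libraries, genes called numbered 1637 and 1033 at 24 h after Dps and MnDps, 3558 and 68 between injections at 4 h and 24 h (121 reported at 24 h) and 4225 for Dps at 24 h against 4 h (6626). It called 1 chemokine for Dps at 24 h, and gave Cx3cl1 there 0.00, Ccl2 and Cxcl1 between injections at 4 h 0.02 and 0.01, and the interaction of Cxcl10 and Cx3cl1 -0.03 and -0.03. Without a count filter 1 chemokine was called for Dps at 24 h. Limma voom called 716 genes between injections at 24 h, and gave Ccl2 at 24 h after Dps -0.20, Cxcl10 between injections -0.08 at 4 h and -0.01 at 24 h, and the interaction of Cxcl1 0.19. DESeq2 called 558 genes there and 2 chemokines for MnDps at 24 h. Only the groups compared gave 727 genes there, 2 chemokines for MnDps at 24 h and 1878 genes for MnDps at 24 h against 4 h (3242). Cxcl16 between injections at 24 h was 0.00 with median-of-ratios factors, the stricter filter and DESeq2.

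Leaving out each library in turn, genes called ran from 1435 to 2666 and 4956 to 6814 at 4 h after Dps and MnDps, 843 to 3861 and 300 to 2821 at 24 h, 4670 to 6264 and 5 to 598 between injections at 4 h and 24 h, 5203 to 7098 and 1336 to 3373 for 24 h against 4 h, and 2724 to 4598 for the interaction. In the same order chemokines called ran from 9 to 10, 10 to 10, 1 to 3, 1 to 1, 0 to 2, 0 to 0, 9 to 10, 7 to 10 and 0 to 0. Ranges that crossed 0 were, for Dps at 24 h, Ccl2 -0.24 to 0.31, Ccl7 -0.46 to 1.30, Ccl12 -1.16 to 0.01 and Cx3cl1 -0.07 to 0.02. For MnDps at 24 h they were Ccl7 -1.10 to 0.66 and Cx3cl1 -0.11 to 0.00. Between injections at 4 h they were Cxcl9 -0.58 to 0.16, Cxcl10 -0.14 to 0.26, Ccl7 -0.33 to 0.10, Ccl12 -0.10 to 0.63, Cxcl1 -0.54 to 0.05 and Cx3cl1 -0.17 to 0.01. At 24 h they were Cxcl9 -0.01 to 0.64, Cxcl10 -0.11 to 0.21, Cxcl11 -0.55 to 0.39, Ccl7 -1.80 to 0.51, Cxcl16 -0.05 to 0.07 and Cx3cl1 -0.09 to 0.02. For the interaction they were Cxcl10 -0.21 to 0.18, Ccl7 -1.62 to 0.69, Ccl5 -0.57 to 0.07, Cxcl1 -0.37 to 0.20 and Cx3cl1 -0.05 to 0.12.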

Other observations

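Ratios within a library, which do not depend on its depth, showed how the mix of chemokines shifted. They are ratios of counts with no correction for transcript length, and are given as values, with no test. The ratio of Ccl5 to Cxcl10 counts was 0.134 to 0.41 in controls, 0.172 to 0.222 in Dps and 0.171 to 0.363 in MnDps at 4 h, and 1.19 to 1.27 and 1.41 to 1.43 at 24 h, when Ccl5 had the larger count in every library. The ratio of Cxcl10 to Cxcl9 was 0.971 to 1.73 in controls, 1.58 to 2.04 and 1.66 to 2.74 at 4 h, and 0.746 to 0.927 and 0.604 to 0.756 at 24 h. Cxcl10 over Cxcl11 was 10.8 to 14.3 in controls, and 46.5 to 73.4 after Dps and 35.7 to 43.0 after MnDps at 4 h. At 24 h it was 6.48 to 15.7. In controls and at 24 h this ratio rests on few counts of Cxcl11. Ccl2 over Ccl7 was 1.2 to 5.33 in controls, and 6.23 to 6.64 after Dps and 4.81 to 6.77 after MnDps at 4 h. It was 1.0 to 5.5 and 2.6 to 11.0 at 24 h, where, as in controls, it rests on few counts of Ccl7.

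Genes outside the chemokine lists were ranked by the root mean square difference of their 4 log2 fold changes against control from those of each chemokine; this is a description over 5 groups that share their controls. Up to 2 are named per chemokine. Nearest to Cxcl9 were Mx1 (0.24), an interferon-induced antiviral GTPase, and Tmem132e (0.27), and nearest to Cxcl10 were Gm5431 (0.26) and Ifit2 (0.35), an interferon-induced gene. For Cxcl11 they were Psmb10 (0.16) and Psmb9 (0.17), subunits of the immunoproteasome. For Ccl2 they were Gbp2 (0.18) and Iigp1 (0.22), interferon-induced GTPases. Ccl7 had B430306N03Rik (0.20) and Ifi204 (0.34), and Ccl12 had Cabp4 (0.22) and Atf3 (0.35), a stress-induced transcription factor. Nearest to Ccl5 were Hp (0.49) and Serpina3n (0.50), genes of acute-phase proteins, at a larger distance than for any other member. Cxcl1 had Arl5c (0.12) and H2-M3 (0.20), Cxcl16 had Stap2 (0.07) and Sectm1a (0.08), and Cx3cl1 had Tbk1 (0.04), a kinase of the pathway that induces interferon, and 9130023H24Rik (0.05).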
